A study of Homo sapiens with 12 samples.

Results

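The nonsense-mediated decay (NMD) factors described here are 9 genes, UPF1, UPF2, UPF3A, UPF3B, SMG1, SMG5, SMG6, SMG8 and SMG9. Their members were taken by gene name from the table of transcript abundances, keeping transcripts that match an Ensembl reference (class code =) or share at least 1 splice junction with it (class code j). This gave 126 transcripts, 93 of class = and 33 of class j, among 286562 transcripts of 56537 gene names. HCT116, a human colorectal cancer cell line, was kept at 21% oxygen (0 h) or held in 1% oxygen for 1, 2 or 24 h, and 3 poly(A) libraries were sequenced at each time point, 12 in all. No other treatment or genotype separated the groups. Hypoxia was begun a day after plating. The labels give no harvest time after plating for any group, so at 24 h hypoxia and time in culture cannot be told apart. The study calls the 3 replicates biological and the labels number them, and p-values measure the spread between these libraries.

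NMD destroys mRNAs on which a ribosome stops too early, typically upstream of an exon junction complex that splicing left on the mRNA. The helicase UPF1 binds the stalled termination complex, UPF2 bridges it to UPF3A or UPF3B, and UPF3B contacts the exon junction complex. The kinase SMG1, held in check by its partners SMG8 and SMG9, then phosphorylates UPF1. Phosphorylated UPF1 recruits SMG6, an endonuclease that cuts the mRNA near the stop codon, and SMG5, which leads to deadenylation and decapping. Besides faulty mRNAs the pathway trims many normal ones, among them mRNAs of stress-response genes and of several NMD factors, and it is known to be dampened in hypoxic cells through translational control.

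Abundance was deposited as FPKM, the fragments of a transcript per unit of its length and of the library's mapped fragments, and the level of a gene is its summed FPKM over the transcripts above. Read counts per transcript were not analysed here, so the spread over 3 replicates is the measure of precision. Changes were tested by limma on log2(FPKM + 0.5) over the 16680 gene names with FPKM above 0.5 in at least 3 libraries, a scale that understates changes of low genes. A gene is said to have risen or fallen at an adjusted p under 0.01, and to be differentially expressed if its log2 fold change also exceeded 1 in size. Single transcripts and isoform usage (limma's diffSplice, which compares the transcripts of a gene with one another) were called at an adjusted p under 0.05. Across genes, r between libraries was 0.965 to 0.988 within a time point and 0.905 to 0.935 between 0 h and 24 h. All 4 hypoxia-response genes looked at as a check were higher at 24 h, with log2 fold changes from 1.90 for VEGFA to 5.34 for NDRG1. All 5 epithelial markers were expressed in every library. CDH1, which encodes E-cadherin, rose at 24 h (log2 fold change 1.76, limma adjusted p = 8.5e-07), and CDX2, EPCAM, KRT18 and KRT8 had log2 fold changes of -0.39 to -0.16 and did not pass. The leukocyte marker PTPRC and the endothelial marker PECAM1 were at or near 0, and of the stromal markers COL3A1 stayed near 0 while COL1A1 went from 1.92 to 6.87 FPKM between 0 h and 24 h. The part of these marker changes in the results was not tested.

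All 9 NMD factors were measured in every library. At 0 h UPF1 was the most abundant, at 33.8 ± 1.3 FPKM (SD, n = 3), followed by SMG5 at 30.2 ± 2.0 and UPF3B at 27.1 ± 0.61. SMG9 at 22.03 ± 1.8, UPF2 at 21.1 ± 0.55 and SMG8 at 19.7 ± 0.90 came next, and UPF2 overlapped both SMG9 and SMG8. UPF3A was lower, at 12.7 ± 0.81, and SMG6 (7.65 ± 0.90) and SMG1 (6.46 ± 0.45) came last and overlapped each other. The order at 24 h ran from SMG5 (31.3 ± 2.7) and UPF1 (25.0 ± 4.2) to SMG6 (9.18 ± 1.4) and SMG8 (8.99 ± 1.3). SMG8 thus stood sixth at 0 h and last at 24 h, where its libraries overlapped those of SMG6. Without 24 h replicate 3, SMG1 was last at 7.13 FPKM, below SMG8 at 8.58. With 3 libraries against 3 the design cannot give an exact permutation p below 0.1, so these orders are described by overlap.

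**Figure D1:**
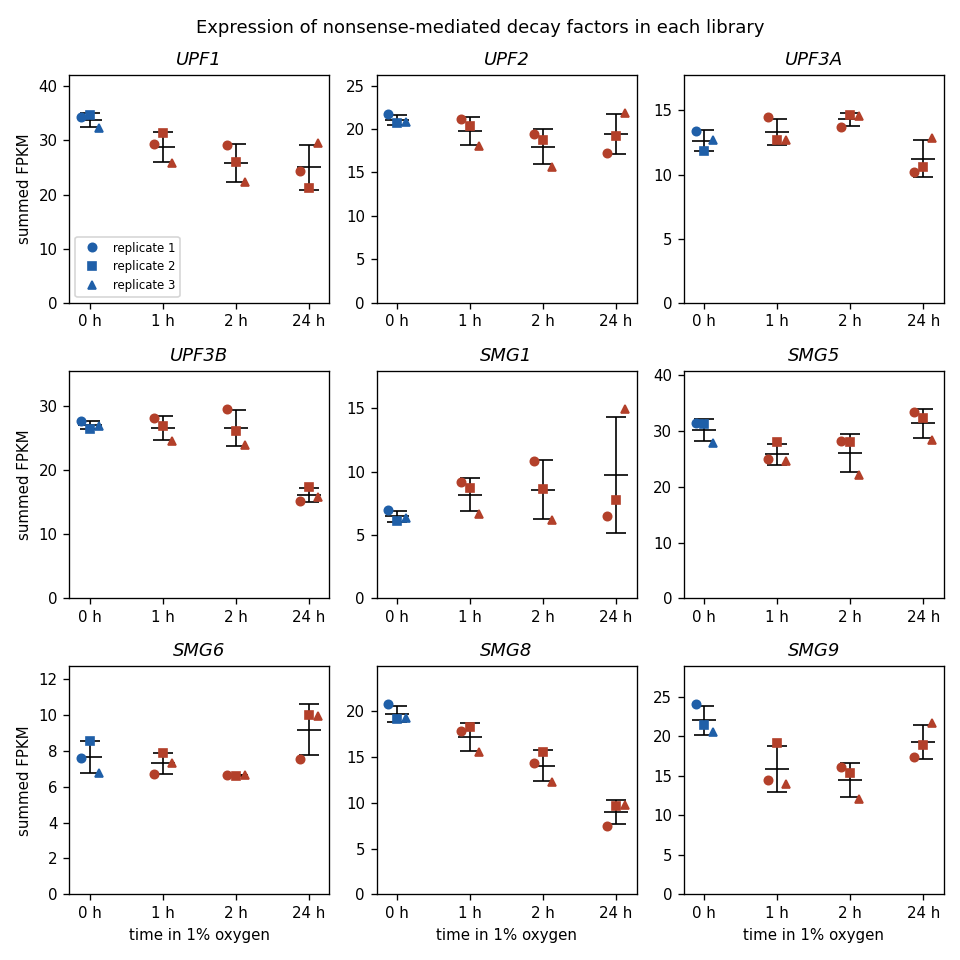
Summed FPKM of the 9 NMD factors in each of the 12 libraries (vertical axes, each from 0) against time in 1% oxygen, with 0 h being 21% oxygen. Symbols are replicates, and the horizontal mark and bars are the mean ± SD of 3 replicates. The 24 h libraries of UPF3B (15.3 to 17.4) and SMG8 (7.47 to 9.81) lie below all 9 earlier libraries, and 24 h replicate 3 of SMG1 stands at 15.0.

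At 1 h none of the 9 factors passed the test (limma, adjusted p under 0.01), and 0.006% of all genes tested did. At an unadjusted p under 0.05 stood 1 of the 9, SMG9, and 4.61% of all genes. At 2 h again none passed, beside 0.024% of all genes, and 3 of the 9 (UPF1, SMG8 and SMG9) had an unadjusted p under 0.05, as did 15.3% of all genes. In bulk RNA, fewer cells expressing a gene and less RNA per cell cannot be told apart. After 24 h UPF3B and SMG8 had fallen and no factor had risen, while 23.2% of all genes fell and 18.3% rose. SMG8 was differentially expressed, as were 18.3% of all genes tested. Between 2 h and 24 h the same pair, UPF3B and SMG8, fell, against 36.6% of all genes that changed in either direction. In TPM, which rescales each library to the same sum, neither passed between 2 h and 24 h (limma adjusted p = 0.60 for UPF3B and 0.66 for SMG8). Fitted on those 6 libraries alone, SMG8 missed the threshold (limma adjusted p = 0.015). The median log2 fold change of the 9 at 24 h was -0.17, beside -0.05 over all genes. It was -0.11 without 24 h replicate 1 and -0.27 without 24 h replicate 3, and with median-of-ratios scaling it was -0.06 beside 0.05 over all genes. By fitted fold change 6 of the 9 were lower and 3 higher at 24 h than at 0 h, and in 3 of them, UPF1, UPF3B and SMG8, the libraries of 0 h and 24 h did not overlap, as was the case for 60.4% of all genes tested.

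**Figure D2:**
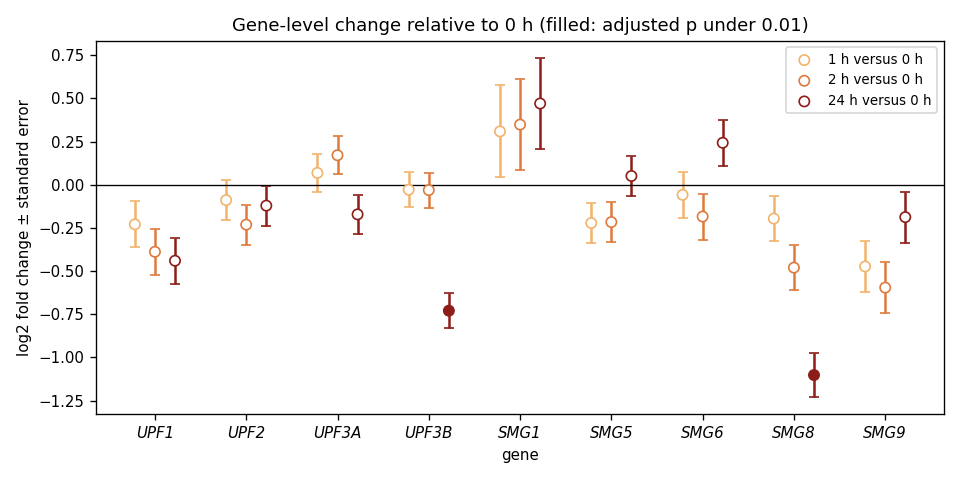
Log2 fold change of each NMD factor relative to 0 h at 1, 2 and 24 h (vertical axis, limma on log2(FPKM + 0.5), bars are standard errors, 3 libraries against 3). Filled symbols passed an adjusted p of 0.01, which only UPF3B (-0.73) and SMG8 (-1.10) did, both at 24 h.

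UPF1, the ATP-dependent RNA helicase at the centre of the pathway (ENSG00000005007; GRCh37 chromosome 19, 18942768 to 18979039, plus strand), stood at 34.4, 34.7 and 32.3 FPKM in the 0 h libraries. It measured 29.3, 31.4 and 25.8 at 1 h, and 29.2, 26.1 and 22.3 at 2 h. At 24 h it was 24.4, 21.1 and 29.5. All 9 libraries in 1% oxygen were below all 3 at 0 h. The log2 fold change was -0.39 at 2 h (standard error 0.13, limma adjusted p = 0.21) and -0.44 at 24 h (standard error 0.13, adjusted p = 0.014), neither past the threshold of 0.01. Leaving out a library gave from -0.33 without 24 h replicate 2 (limma adjusted p = 0.065) to -0.56 without 24 h replicate 3 (adjusted p = 0.0035), and only the latter passed.

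UPF1 is spliced into 2 abundant coding transcripts that differ inside the protein. UPF1-207 encodes 1129 codons and UPF1-201 encodes 1118, because UPF1-207 uses a 5′ splice site farther downstream at the end of exon 7 and so keeps 33 bases that UPF1-201 removes with intron 7. The added codons lie in a regulatory loop of the helicase core, for which the longer form is known as the long-loop isoform. The sequence is shown because the balance of the 2 forms is what the transcript values below describe. It is read 5′ to 3′ from GRCh37 (chr19:18963851-18963943, plus strand), with the 33 coding bases particular to UPF1-207 in capitals.
UPF1-207 segment with flanks: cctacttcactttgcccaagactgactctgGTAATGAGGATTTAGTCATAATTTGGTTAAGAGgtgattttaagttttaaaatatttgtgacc

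UPF1-201 stood at 27.0, 25.2 and 23.1 FPKM at 0 h and at 13.6, 13.3 and 18.2 at 24 h. UPF1-207 stood at 5.22, 7.99 and 8.18 FPKM at 0 h and at 8.98, 7.05 and 8.76 at 24 h. The shorter form therefore had no overlap between the groups, and the longer form did. UPF1-201 fell by 0.73 on the log2 scale (standard error 0.14, limma adjusted p = 0.0031), while UPF1-207 had a log2 fold change of 0.22 (standard error 0.25, adjusted p = 0.57). As a share of the pair, UPF1-207 made up 16.2%, 24.1% and 26.1% at 0 h and 39.8%, 34.6% and 32.5% at 24 h. Its mean was 22.1% ± 5.3 before hypoxia, 20.0% and 20.2% at the short exposures and 35.6% ± 3.8 (SD, n = 3) after 24 h, so that the 24 h libraries lay above the other 9 (exact permutation p = 0.1 against 0 h, two-sided, the smallest possible). The test of isoform usage over all 4 transcripts of UPF1 past the filter did not pass (limma diffSplice, adjusted p = 0.24).

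UPF2, the scaffold between UPF1 and UPF3 (ENSG00000151461; chromosome 10, 11962021 to 12085169, minus strand), measured 21.7, 20.7 and 20.8 FPKM at 0 h and 17.3, 19.1 and 21.9 at 24 h. The groups overlapped, and the log2 fold change was -0.12 (standard error 0.12, limma adjusted p = 0.40). Its main transcript, UPF2-202, carried 92.9% ± 2.3 of its FPKM at 0 h and 89.5% ± 4.1 at 24 h. None of its 3 transcripts past the filter passed the test, and its isoform usage did not either (diffSplice adjusted p = 0.67). The ratio of UPF1 to UPF2 went from 1.60 ± 0.064 to 1.29 ± 0.16 at 24 h (SD, n = 3), without overlap (exact permutation p = 0.1, two-sided).

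UPF3B, the factor that links the UPF proteins to the exon junction complex (ENSG00000125351; chromosome X, 118967985 to 118986961, minus strand), measured 27.8, 26.6 and 27.0 FPKM at 0 h. It was 28.2, 27.0 and 24.5 at 1 h, and 29.7, 26.1 and 24.0 at 2 h. Its 24 h libraries read 15.3, 17.4 and 15.8. The first 3 time points overlapped one another and the last stood apart below them. UPF3B fell by 0.73 on the log2 scale at 24 h (standard error 0.10, limma adjusted p = 7.6e-05), a 1.68-fold lower mean FPKM. The change from 2 h to 24 h was -0.70 (standard error 0.10, adjusted p = 0.00013). At 2 h its log2 fold change from 0 h was -0.03 (standard error 0.10).

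UPF3B also has 2 coding forms. UPF3B-201 (483 codons) holds a 39-base exon that UPF3B-202 (470 codons) skips, since for UPF3B-202 these bases are part of intron 7. The exon is shown because the transcript that holds it had the greatest log2 fall of the members' transcripts at 24 h. It is read 5′ to 3′ on the minus strand of GRCh37 (chrX:118974579-118974677), with the exon in capitals and intron bases in lower case.
UPF3B-201 exon with flanks: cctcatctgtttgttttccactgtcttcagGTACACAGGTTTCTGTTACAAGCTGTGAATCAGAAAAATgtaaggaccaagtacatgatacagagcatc

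UPF3B-201 measured 3.45, 2.55 and 2.25 FPKM at 0 h and 0.130, 0.328 and 0.538 at 24 h. UPF3B-202 measured 24.3, 24.0 and 24.7 at 0 h and 15.1, 17.1 and 15.3 at 24 h. Neither form overlapped between the groups. UPF3B-201 fell by 1.98 on the log2 scale (standard error 0.27, limma adjusted p = 0.00038) and UPF3B-202 fell by 0.61 (standard error 0.11, adjusted p = 0.0023). The form with the exon made up 10.1% ± 2.1 of the pair at 0 h (SD, n = 3). Its share was 10.8% at 1 h and 8.33% ± 0.73 at 2 h, and it ended at 2.05% ± 1.3 after 24 h. Isoform usage of UPF3B differed between 0 h and 24 h (diffSplice adjusted p = 0.0018), as it did in 30.4% of the genes tested.

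UPF3A, the paralogue of UPF3B and the weaker in NMD (ENSG00000169062; chromosome 13, 115047076 to 115071292, plus strand), measured 13.4, 11.8 and 12.7 FPKM at 0 h. It was 14.5, 12.7 and 12.7 at 1 h and 13.7, 14.7 and 14.5 at 2 h. The 24 h values were 10.2, 10.6 and 12.9. The 2 h libraries lay above those of 0 h, and the 24 h libraries overlapped them. The log2 fold change was -0.17 at 24 h (standard error 0.11, limma adjusted p = 0.21). The ratio of UPF3B to UPF3A went from 2.15 ± 0.093 to 1.46 ± 0.21 at 24 h (SD, n = 3), with all 3 libraries at 24 h lower (exact permutation p = 0.1, two-sided). UPF3A had more transcripts past the filter than any other member, 10 of its 21, and its leading transcript carried 21.9% ± 7.0 of its FPKM at 0 h. UPF3A-209, a coding form of 2 exons and 105 codons, rose from 0.172 ± 0.23 to 1.25 ± 0.51 FPKM (log2 fold change 1.39, limma adjusted p = 0.012). A class j transcript of 2441 bases fell by 0.70 on the log2 scale (adjusted p = 0.047). Isoform usage of UPF3A differed between the time points (diffSplice adjusted p = 0.0032).

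SMG8 (ENSG00000167447; chromosome 17, 57286761 to 57292600, plus strand), which with SMG9 restrains the SMG1 kinase, measured 20.8, 19.1 and 19.3 FPKM at 0 h. It measured 17.8, 18.3 and 15.5 at 1 h and 14.4, 15.6 and 12.3 at 2 h. At 24 h it was 7.47, 9.69 and 9.81. Each of the later time points lay below all 0 h libraries. SMG8 fell by 1.10 on the log2 scale at 24 h (standard error 0.13, limma adjusted p = 2.1e-05), a 2.196-fold lower mean FPKM, and was the only member called differentially expressed. That call depended on the setting, since UPF3B went as low as -1.52 in another. Leaving out a library gave SMG8 log2 fold changes of -1.17 to -0.98, the last of these under 2-fold. The log2 fold change at 2 h was -0.48 (standard error 0.13, adjusted p = 0.14), and from 2 h to 24 h it was -0.62 (standard error 0.13, adjusted p = 0.0016). A single coding transcript, SMG8-201, carried 98.0% ± 0.28 of the gene's FPKM at 0 h and 98.8% ± 1.2 at 24 h, and it fell by 1.09 (standard error 0.15, adjusted p = 0.00035). The merged locus also holds PRR11 and CTD-2510F5.6, which were counted under their own names.

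SMG9, the second partner of SMG1 (ENSG00000105771; chromosome 19, 44232135 to 44259114, minus strand), measured 24.1, 21.4 and 20.6 FPKM at 0 h. It measured 14.4, 19.2 and 13.9 at 1 h, and 16.1, 15.4 and 12.03 at 2 h. At 24 h it read 17.4, 18.96 and 21.6. The libraries of 1 h and 2 h were below all those of 0 h, whereas the 24 h libraries overlapped them. The log2 fold changes were -0.47 at 1 h (standard error 0.15, limma adjusted p = 1.0) and -0.60 at 2 h (standard error 0.15, adjusted p = 0.12). At 24 h it was -0.19 (standard error 0.15, adjusted p = 0.30). Relative to SMG8, SMG9 stood at a ratio of 1.11 ± 0.046 before hypoxia, then 0.920 after 1 h, 1.03 ± 0.078 after 2 h and 2.16 ± 0.19 after 24 h (SD, n = 3), with the 24 h libraries above all others.

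Beneath that gene total the transcripts of SMG9 went different ways. The main coding form SMG9-201 measured 19.9, 18.7 and 18.2 FPKM at 0 h and 10.1, 11.7 and 12.7 at 24 h. SMG9-203, annotated as a retained intron, measured 0.257, 0.203 and 0.199 at 0 h and 2.19, 1.16 and 1.91 at 24 h. Neither overlapped between the groups. SMG9-201 fell by 0.70 on the log2 scale (standard error 0.17, limma adjusted p = 0.0096), and SMG9-203 rose by 1.62 (standard error 0.25, adjusted p = 0.00077). A class j transcript of 6099 bases, nearest to SMG9-201 and of unknown reading frame, rose by 1.08 (standard error 0.20, adjusted p = 0.0023). SMG9 had the lowest p for isoform usage of the members (diffSplice adjusted p = 0.00086). SMG9-201 carried 86.1% ± 2.8 of the gene's FPKM at 0 h and 59.6% ± 1.8 at 24 h.

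SMG9-203 runs on from the end of an exon of SMG9-201 into the first 272 of the 439 bases of intron 8. The splice site it leaves uncut is shown because this is the SMG9 form with the greatest log2 rise, read 5′ to 3′ on the minus strand of GRCh37 (chr19:44242259-44242288) with the first intron bases in capitals.
SMG9 intron 8, 5′ splice site: tacgttgaaatgcagGTGAGGGAGCCAAGC

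SMG1, the kinase of UPF1 (ENSG00000157106; chromosome 16, 18816182 to 18937730, minus strand), measured 6.96, 6.07 and 6.35 FPKM at 0 h. It measured 9.19, 8.67 and 6.69 at 1 h, and 10.9, 8.61 and 6.20 at 2 h. At 24 h it was 6.51, 7.75 and 15.0, so that a single library stood far above the others and the groups overlapped. The log2 fold change at 24 h was 0.47 (standard error 0.27, limma adjusted p = 0.15), and without 24 h replicate 3 it was 0.13. None of its 3 transcripts past the filter passed the test. SMG1 has near-identical pseudogene copies between which reads may be split, so its level is uncertain. SMG1P1, the copy listed in the table, measured 7.59 FPKM at 0 h and 6.44 at 24 h. The ratio of SMG8 to SMG1 went from 3.06 ± 0.084 to 1.02 ± 0.32 at 24 h (SD, n = 3), after 2.12 ± 0.19 at 1 h and 1.70 ± 0.34 at 2 h. That of SMG9 to SMG1 was 3.41 ± 0.15 before hypoxia, then 1.96 ± 0.34 after 1 h, 1.73 ± 0.23 after 2 h and 2.19 ± 0.65 after 24 h. Neither ratio overlapped its 0 h values at any later time point (exact permutation p = 0.1 each, two-sided).

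SMG5, the adaptor that binds phosphorylated UPF1 (ENSG00000198952; chromosome 1, 156219015 to 156252616, minus strand), measured 31.5, 31.2 and 27.9 FPKM at 0 h. It was 25.0, 28.0 and 24.6 at 1 h, and 28.1, 27.9 and 22.1 at 2 h. At 24 h it read 33.4, 32.3 and 28.3, overlapping 0 h. The log2 fold change at 24 h was 0.05 (standard error 0.11, limma adjusted p = 0.73), and its sign changed to -0.78 in TPM, where the median of all genes was also -0.78. The merged locus of SMG5 also holds PAQR6, which was counted under its own name.

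The transcripts of SMG5 that passed all rose. The retained-intron transcript SMG5-203 measured 2.86, 1.64 and 1.52 FPKM at 0 h and 2.68, 3.02 and 2.63 at 1 h. It reached 4.26, 4.22 and 3.75 at 2 h, and the last time point gave 6.22, 6.82 and 5.16. Its 2 h and 24 h libraries all lay above 0 h. SMG5-203 rose by 1.42 on the log2 scale at 24 h (standard error 0.21, limma adjusted p = 0.00067). SMG5-204, a second retained-intron transcript, rose by 1.05 (standard error 0.28, adjusted p = 0.016), from 2.07 ± 0.92 to 4.65 ± 1.1 FPKM. A class j transcript of 9233 bases rose by 1.12 (standard error 0.23, adjusted p = 0.0037), from a mean of 0.237 to 1.11 FPKM. The main coding form SMG5-201 measured 21.4, 24.7 and 23.9 at 0 h and 19.0, 17.7 and 18.1 at 24 h. Those groups did not overlap, yet its log2 fold change of -0.34 (standard error 0.15, adjusted p = 0.11) did not pass. SMG5 differed in isoform usage (diffSplice adjusted p = 0.0068), a call that was lost without 0 h replicate 2 (adjusted p = 0.051).

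Both retained-intron transcripts of SMG5 hold part of the same intron. SMG5-203 runs on from the upstream exon into 324 of the 406 bases of intron 20 of SMG5-201, and SMG5-204 holds the last 384 bases of that intron with its downstream exon. SMG5-203 also keeps the last 51 bases of intron 18. Both ends of intron 20 are shown because parts of this intron stand in both of these transcripts, read 5′ to 3′ on the minus strand of GRCh37, with intron bases in capitals (5′ site chr1:156221179-156221208, 3′ site chr1:156220773-156220802).
SMG5 intron 20, 5′ splice site: ggatgcagatgcctgGTAACATTTTAGCCC
SMG5 intron 20, 3′ splice site: GCCCCCCATCCCCAGgactctctataagat

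SMG6, the endonuclease (ENSG00000070366; chromosome 17, 1963133 to 2207079, minus strand), measured 7.59, 8.58 and 6.78 FPKM at 0 h. At 2 h its libraries were close together, at 6.65, 6.62 and 6.68. It measured 7.55, 10.0 and 9.97 at 24 h, overlapping 0 h. The log2 fold change was 0.24 (standard error 0.13, limma adjusted p = 0.14). Its leading transcript differed between the 2 time points. SMG6-201, the coding form of 1419 codons, measured 3.65, 3.58 and 3.41 FPKM at 0 h and 2.13, 1.71 and 1.85 at 24 h. ENST00000544865, a reference transcript of 6331 bases that carries no type in the annotation used, measured 1.26, 0.918 and 1.17 at 0 h and 2.12, 3.19 and 3.27 at 24 h. SMG6-201 fell by 0.76 on the log2 scale (standard error 0.19, limma adjusted p = 0.012) and ENST00000544865 rose by 1.04 (standard error 0.24, adjusted p = 0.0088). A class j transcript of 8491 bases nearest to ENST00000544865 rose by 1.33 (standard error 0.26, adjusted p = 0.0030). Among the tested transcripts of SMG6, only that of 8491 bases differed in usage (diffSplice adjusted p = 0.027), and it exceeded 0.5 FPKM at 24 h only. Isoform usage of SMG6 as a gene passed (diffSplice adjusted p = 0.032), but in only 10 of 16 settings. The call was lost without 0 h replicate 1, 0 h replicate 2 or 24 h replicate 3 (diffSplice adjusted p = 0.087, 0.059 and 0.13). It was also lost with an FPKM minimum of 1, with class = only and with only the libraries of 0 h and 24 h (adjusted p = 0.068, 0.072 and 0.15). The ratio of SMG5 to SMG6 was 3.96 ± 0.28 at 0 h and 3.49 ± 0.83 at 24 h, with overlap.

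Over all members, 96 of the 126 transcripts had an FPKM above 0 in some library, and 38 passed the filter of FPKM above 0.5 in at least 3 libraries. Those 38 carried 96.8% of the members' FPKM. At 24 h 8 of them rose and 7 fell at an adjusted p under 0.05, where 11.3% of all transcripts tested rose and 15.3% fell. Of the 38, 2 exceeded 0.5 FPKM at 24 h only, so their rise was in part set by the filter. These 2 were the class j transcripts of SMG5 (9233 bases) and SMG6 (8491 bases). UPF2 and SMG1 were the members with no changed transcript, and UPF3B and SMG8 were those in which every tested transcript fell. Rising and falling transcripts occurred together in UPF3A, SMG6 and SMG9.

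**Figure D3:**
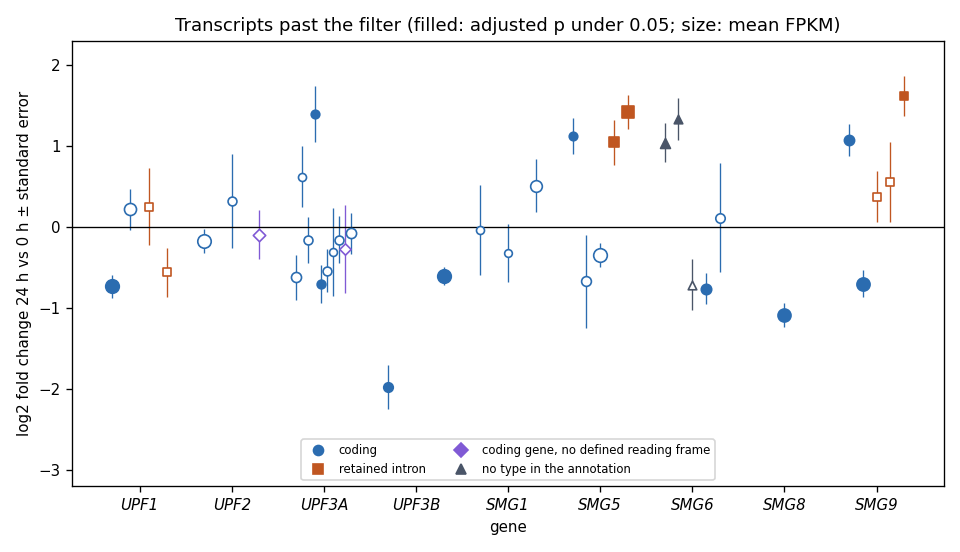
Log2 fold change between 0 h and 24 h of the 38 member transcripts past the filter (vertical axis, bars are standard errors), grouped by gene, with colour and shape giving the annotated type of the transcript or, for class j, of its nearest reference. Filled symbols passed an adjusted p of 0.05 and larger symbols have a higher mean FPKM. The retained-intron transcripts of SMG5 and SMG9 that passed lie above 0, from 1.05 to 1.62, and the main coding forms of UPF1, UPF3B, SMG8 and SMG9 lie below it, from -0.61 to -1.09.

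In 7 of the 9 members the transcript with the highest mean FPKM was the same at 0 h and 24 h. The other two were SMG6, as given above, and UPF3A, in which UPF3A-202 led at 0 h and a class j transcript of 1641 bases led at 24 h with 21.1% ± 4.7 of the gene's FPKM. Of the 8 members with at least 2 transcripts past the filter, 5 differed in isoform usage between 0 h and 24 h (SMG9, UPF3B, UPF3A, SMG5 and SMG6), where 30.4% of all genes tested did. In SMG6 the only transcript with changed usage was the class j one that passed the filter through 24 h alone, so that call was in part set by the filter. On simulated data with few changed genes the false calls of diffSplice outnumbered the true ones. A fit with a variance for each transcript also called 5 members, the highest adjusted p of the named ones being 0.029 (limma, UPF3A). Usage of single transcripts differed for 8 transcripts of the members, where 10.3% of all transcripts tested did.

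The share of a member's typed FPKM in transcripts with no annotated coding product was higher at 24 h without overlap in SMG5 and SMG9, 2 of the 9, as it was in 13.6% of the tested genes that have both coding and noncoding transcripts. In SMG5 it consisted of retained-intron transcripts, which made up 18.6%, 11.8% and 9.60% at 0 h and 18.6%, 17.3% and 17.9% at 1 h. They reached 26.4%, 23.2% and 29.0% at 2 h, and finally 34.8%, 37.1% and 30.2% at 24 h. The mean went from 13.3% ± 4.7 to 34.0% ± 3.5 between 0 h and 24 h (SD, n = 3), and the 2 h libraries already lay above those of 0 h (exact permutation p = 0.1, two-sided, the smallest possible). In SMG9 retained-intron transcripts made up 8.85%, 4.58% and 4.20% at 0 h and 21.7%, 17.2% and 19.0% at 24 h, again without overlap (exact permutation p = 0.1, two-sided). Class j models, whose reading frames are unknown, were typed by their nearest reference. Counted so, coding FPKM of SMG5 was 26.1 ± 1.2 at 0 h and 20.6 ± 1.1 at 24 h, and that of SMG9 was 20.5 ± 1.1 and 15.4 ± 1.8. Both were already below their 0 h libraries at the short exposures, SMG5 with means of 21.2 and 19.3 and SMG9 with 14.3 and 12.8 at 1 h and 2 h. In the other 7 members the share overlapped, with UPF3A ranging from 2.77% to 21.7% among its 24 h libraries. For SMG6 the share leaves out 3 untyped transcripts past the filter, among them the 2 that rose. One of these, ENST00000544865, held 14.9% of the gene's FPKM at 0 h and 30.9% at 24 h. The median difference over the 9 was 0.846 percentage points. Leaving out a library moved that median between 0.275 (without 0 h replicate 1) and 1.62 (without 24 h replicate 2), by over 1.5 times for each library but 24 h replicate 3. With only transcripts past the filter it was 0, but there UPF3B, SMG1, SMG6 and SMG8 keep no transcript of a noncoding type. Their differences are then 0 by construction. FPKM is per length, so a short retained-intron model such as SMG5-203 (541 bases) weighs more in these shares than its reads would. Over all genes, retained-intron transcripts of at least 300 bases made up 3.92% ± 0.18 of FPKM at 0 h and 4.47% ± 0.17 at 24 h. Transcripts annotated as NMD targets made up 3.28% ± 0.068 and 2.91% ± 0.066 (SD, n = 3), with the 24 h libraries below all those of 0 h.

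**Figure D4:**
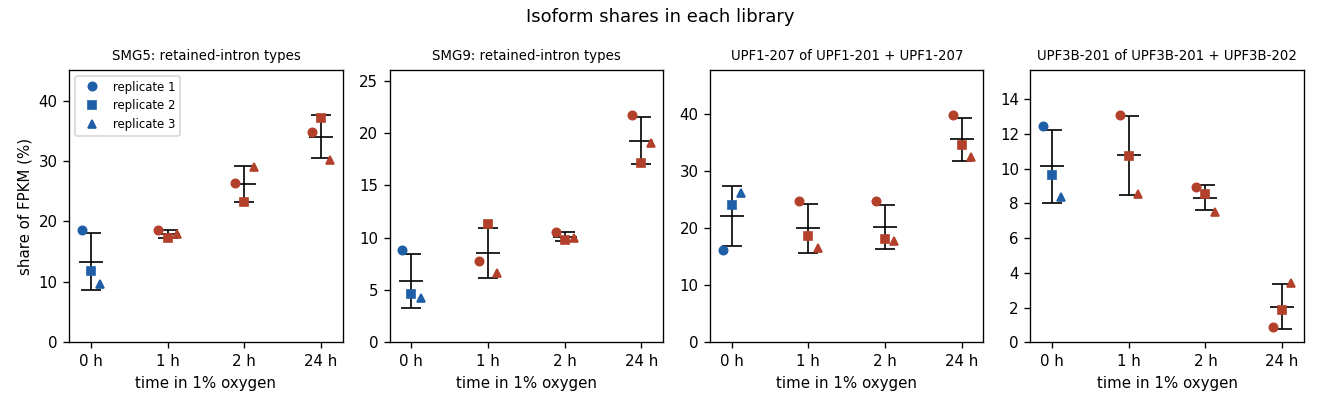
Share of FPKM in percent (vertical axes, each from 0) in each library against time in 1% oxygen. From the left, the panels show retained-intron transcripts of SMG5, those of SMG9, UPF1-207 of the pair UPF1-201 and UPF1-207, and UPF3B-201 of the pair UPF3B-201 and UPF3B-202. Symbols are replicates and bars the mean ± SD of 3. In every panel the 24 h libraries stand apart from all others, above them for SMG5, SMG9 and UPF1-207 and below them for UPF3B-201.

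Among 14 other factors linked to NMD, 3 rose and 6 fell at 24 h, where 18.3% of all genes rose and 23.2% fell, with a median log2 fold change of -0.18. The 4 differentially expressed ones were all lower. NCBP1, the large subunit of the nuclear cap-binding complex, went from 27.3 ± 2.4 to 7.77 ± 1.3 FPKM (log2 fold change -1.76, limma adjusted p = 1.1e-06). ETF1, the release factor that recognises stop codons, went from 134 ± 7.8 to 50.5 ± 8.0 (log2 fold change -1.41, adjusted p = 3.6e-06). RUVBL1, an ATPase that acts on SMG1, and DHX34, an RNA helicase that activates UPF1, had log2 fold changes of -1.25 and -1.06.

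Of 10 genes of the exon junction complex 9 fell and none rose, beside 23.2% and 18.3% of all genes, with a median log2 fold change of -0.65 against -0.05 over all genes. Leaving out a library of 0 h or 24 h left 7 to 8 of the 10 past the threshold, and over all alternative settings 6 to 9 passed. MAGOHB and MAGOH, which encode the core subunit that pairs with RBM8A, fell by 1.83 and 1.23 on the log2 scale (limma adjusted p = 3.6e-07 and 1.3e-05). WIBG, which takes the complex off mRNAs in translation, fell by 1.04 (adjusted p = 2.8e-05). CASC3, another core subunit, was the exception at 0.07 (adjusted p = 0.63).

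Of 21 mRNA decay enzymes and their cofactors 8 rose and 3 fell, again beside 18.3% and 23.2% of all genes, with a median log2 fold change of 0.16. The deadenylase subunits PAN2 and CNOT8 rose by 1.51 and 1.18 (limma adjusted p = 4.6e-06 and 5.1e-06), and LSM1, which promotes decapping, fell by 1.03 (adjusted p = 6.4e-05). Leaving out a library of 0 h or 24 h gave 8 to 14 of the 21 past the threshold, and the replicate block gave 13. In TPM only 2 of the 21 passed, and the share of all genes passing in TPM was not counted. Of 19 genes whose mRNAs have been reported as NMD substrates, 5 rose and 5 fell, shares near those of all genes (18.3% and 23.2%), with a median of -0.17. DNAJB2, a chaperone, and GADD45A, a stress-response gene, rose by 1.34 and 1.15 (adjusted p = 1.2e-06 and 2.4e-05). SNHG15, a noncoding host of a small nucleolar RNA, and BAG1, a cochaperone, fell by 1.62 and 1.03 (adjusted p = 2.5e-06 and 4.6e-05).

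**Figure D5:**
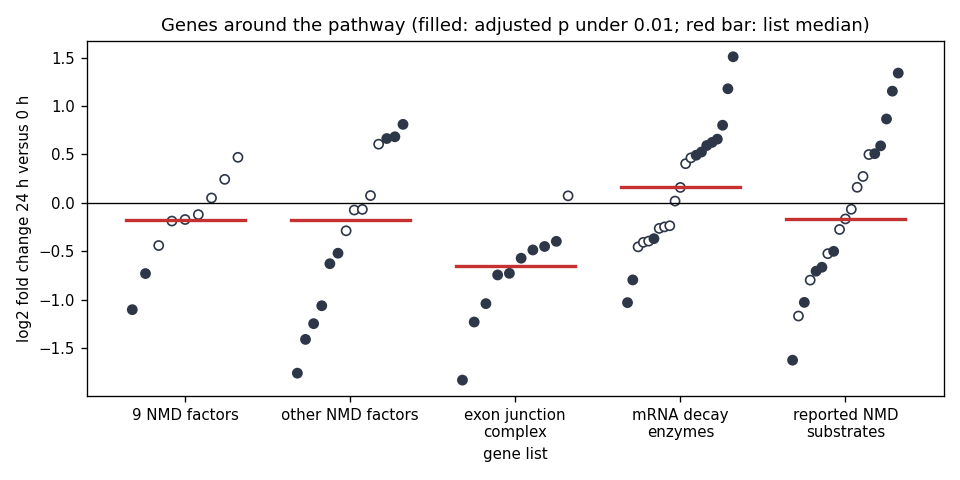
Log2 fold change between 0 h and 24 h (vertical axis) of the 9 NMD factors, 14 other NMD factors, 10 exon junction complex genes, 21 mRNA decay enzymes and 19 reported NMD substrates, each point a gene in ascending order within its list. Filled points passed an adjusted p of 0.01 and red bars are list medians. In the exon junction complex 9 of 10 points lie below 0 and are filled, whereas the other lists have filled points on both sides, apart from the 9 NMD factors, whose 2 filled points are below 0.

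The genes whose log2 levels followed SMG8 most closely over the 12 libraries were EPDR1 (Pearson's r = 0.990), SNHG15 (0.987) and FIGNL1 (0.985), chosen as the 3 highest among all genes tested and given as a description. EPDR1 went from 9.57 FPKM at 0 h to 7.57 at 2 h and 4.98 at 24 h, and FIGNL1 from 13.0 to 10.1 and 6.81. SNHG15 is also on the list of substrates above. Among the pseudogenes of UPF3A, UPF3AP1 measured 4.52 FPKM at 0 h and 4.49 at 24 h, and UPF3AP2 measured 7.27 and 4.76. Reads of near-identical copies can be split between them and UPF3A, so these levels are uncertain.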

How the data were processed

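Poly(A) RNA of HCT116 cells was sequenced strand-specifically as paired reads. Per the study's methods and the labels, the authors mapped reads on hg19 (Mapsplice), built transcript models sample by sample (Cufflinks), combined the models and matched them to Ensembl. The submitters' notes name CASAVA 1.8.2. The authors deposited FPKM per transcript and library, which was used without rescaling. Transcripts of class = and j were summed by gene name. A gene name can cover more than 1 locus, as 3090 did.

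Here limma (version 3.58.1, R 4.3.3, data.table version 1.17.8) fitted log2(FPKM + 0.5) over all 12 libraries with lmFit and eBayes (trend), with Benjamini-Hochberg adjustment over all genes (adjusted p under 0.01), all transcripts (under 0.05) or, for diffSplice with Simes p, all 10680 genes with at least 2 transcripts (under 0.05). All tests were two-sided. Steps were tested on simulated data, on which the false calls of diffSplice outnumbered the true ones. Python 3.11.15, numpy 2.4.6, pandas 2.3.3 and matplotlib 3.10.9 were used for summaries, exact permutation tests and figures. Transcript types came from GENCODE 44 lifted to GRCh37, and 86.6% of transcripts had a type. Sequences were read from GRCh37. The reads behind each value were not analysed here.

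The named genes were all 9 members, up to 4 differentially expressed genes of each list (otherwise the 2 with the lowest p), leading and changed transcripts, the 3 genes most like the most changed member, pseudogenes and check genes. Members and lists were chosen with earlier results of these data known. Alternatives covered pseudocount, filter, class code, scaling, libraries, replicate block and left-out replicates. Replicate numbers come from the labels. Deviations of same-numbered libraries correlated at 0.246, 0.129 and 0.362 between 0 h and 2 h, which counts as pairing there, but at -0.00078, 0.0055 and 0.242 between 0 h and 24 h, which does not.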

Additional observations from a re-analysis of the deposited data

Results flagged for a closer look

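For 2 of the 9 NMD factors the change from 0 h to 24 h differed from the change from 0 h to 2 h, tested as the contrast of 24 h with 2 h, in which 36.6% of all genes changed. UPF3B had a log2 fold change of -0.70 from 2 h to 24 h (standard error 0.10, limma adjusted p = 0.00013), after -0.03 from 0 h to 2 h. SMG8 had -0.62 (standard error 0.13, limma adjusted p = 0.0016), after -0.48 from 0 h to 2 h, so it was lower at 2 h and lower again at 24 h. In all 3 libraries of 24 h both genes were below all 3 libraries of 2 h. Leaving out each library of 2 h and 24 h in turn gave -0.77 to -0.62 for UPF3B and -0.72 to -0.50 for SMG8, with the highest limma adjusted p at 0.00084 and 0.0097. In TPM neither passed (limma adjusted p = 0.60 and 0.66), and SMG8 missed the threshold when only those 6 libraries were fitted (limma adjusted p = 0.015).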

How the results depend on the processing

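Of 379 values recomputed under alternatives, 361 kept their direction and side of the threshold or, for counts, stayed within 1.5 times. Medians were counted as kept when they moved by less than their SD over the single libraries of 24 h, even if by over 1.5 times. UPF3B and SMG8 fell at 24 h in all 17 settings. Rescaling to TPM changed most. It moved the median log2 fold change of all genes to -0.78, against -0.13 over transcripts of at least 300 bases, and that of the members to -0.95. Transcripts under 300 bases held 57.0% to 87.7% of FPKM per library. In TPM 1 member passed at 2 h, 0 between 2 h and 24 h, 5 other NMD factors and 2 decay enzymes. The share of all genes passing in TPM was not counted, so these counts have no background beside them. In the same scaling SMG1 was -0.33, SMG5 -0.78 and SMG6 -0.53. TPM over transcripts of at least 300 bases gave SMG5 -0.041. Between 2 h and 24 h, 4 members passed with median-of-ratios scaling and 1 when only those libraries were fitted. Leaving out a replicate gave 3 to 6 members with differential isoform usage (3 without 0 h replicate 2) and SMG5 values of -0.0046 (without 0 h replicate 3) to 0.12. With the replicate block, 0 members passed at 2 h, 2 at 24 h, 14 member transcripts and 5 members with differential usage, and no count moved by over 1.5 times. Of the 12 libraries, 10 deviated most like one of their own number. The cause of these shifts was not tested. Because read counts were not analysed here, levels of transcripts near 0.5 FPKM have no counting error attached.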
